A study of Mus musculus with 2 samples.

Results

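Chemokines and chemokine receptors were taken as every row whose gene symbol begins with Ccl, Cxcl, Ccr, Cxcr or Ackr followed by a digit, together with Cx3cl1, Cx3cr1, Ccrl2, Pf4 and Ppbp. The rule found 70 of the 34745 rows, which carry 65 symbols, with 47 rows for ligands and 23 for receptors. The rows came from 2 mRNA-seq libraries of mouse monocytic myeloid-derived suppressor cells (M-MDSCs), which are immature monocyte-like cells that restrain T cells. Bone marrow cells were cultured with GM-CSF alone (CHBP- M-MDSC) or with GM-CSF and CHBP (CHBP+ M-MDSC) and were collected on day 7 by sorting for CD11b+Ly6G-Ly6C high cells. CHBP is a cyclic peptide made from helix B of erythropoietin that does not drive red cell formation. The labels name the strain C57BL/6 for CHBP- and C57BL/7 for CHBP+, whereas the study's methods name C57BL/6 mice, young adults, for both. The labels give no dose of CHBP and the study's text gives it differently in its methods and its results, so none is stated here.

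Each condition had 1 library, so no difference below has a replicate check and none can be told apart from a difference between the 2 cultures, and in bulk RNA fewer cells of a type and less RNA per cell cannot be told apart. The libraries held 16484504 (CHBP-) and 16280466 (CHBP+) reads assigned to genes. All intervals are 95% exact Clopper-Pearson intervals for the reads and cover counting error only, since the reads are not independent molecules. The main value was the log2 ratio of FPKM + 1, CHBP+ over CHBP-, where FPKM is the read count of a gene scaled to its length in kilobases and to the total reads of the library. A gene was kept with at least 1 FPKM in at least 1 library, which left 10948 genes, and a ratio past 1.5-fold was counted as higher or lower. The sorted cells carried the monocytic markers, with Lyz2 at 9756 and 7830 FPKM in CHBP- and CHBP+, Csf1r at 113 and 126 FPKM and Ly6c2 at 56.9 and 34.0 FPKM. The log2 ratio of Ly6c2 was -0.73, past 1.5-fold. With the trend over FPKM length and over longest transcript removed it was -0.69 and -0.36, the latter short of 1.5-fold. Both entries of the other sorting marker Itgam (CD11b) were higher in CHBP+, with log2 ratios of 0.56 and 0.61, the latter past 1.5-fold. The former stood at 157 and 232 FPKM, and at 0.42 with the longest-transcript trend removed. Of the 9 monocytic entries kept, 3 lay above and 6 below 0. The neutrophil marker Ly6g stood at 2.19 and 2.12 FPKM, although the 8 neutrophil markers together ranged up to 1290 and 1546 FPKM, and all 5 T cell markers were below 1 FPKM in both libraries. The 6 macrophage markers summed to 190 and 217 FPKM and the 6 basophil and mast cell markers to 201 and 175 FPKM. Within the latter sum Ms4a2 was past 1.5-fold higher, at 2.46 and 6.11 FPKM, and Mcpt8 past 1.5-fold lower, at 46.1 and 29.9 FPKM.

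Chemokines are small secreted proteins that guide cells along a gradient. They bind receptors that cross the membrane many times and signal through Gi proteins to phosphoinositide 3-kinase and Rac and so turn the cell toward the source, while atypical receptors take ligands up without Gi signalling. Monocytes leave the bone marrow through CCR2, are held there by CXCR4, and are drawn into tissue by receptors such as CCR1, and the same cells release ligands for these receptors and for CXCR2, the main receptor of neutrophils.

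Of the 70 rows, 21 had 0 reads in both libraries, 18 had reads but stayed below 1 FPKM in both, and 31 were kept. The kept genes were 20 ligands and 11 receptors. The ligands carried 211307 reads in CHBP- and 178293 in CHBP+ M-MDSC, or 1.28% and 1.10% of all reads, and the 22 receptor rows described here 21246 and 20977, or 0.129% and 0.129%. Relative to the totals the ligand reads were thus 0.854-fold in CHBP+ (95% interval 0.849 to 0.860) and the reads of these 22 receptor rows, a sum that leaves out 1 of the 23, were 1.00-fold (0.981 to 1.02). Without Ccl6 the ligand reads were 0.929-fold (0.920 to 0.938), and without Ccl6 and Ccl9 they were 0.856-fold (0.842 to 0.870).

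One member was at least 1.5-fold higher in CHBP+ M-MDSC, the neutrophil attractant Cxcl5, where 3.42% of all genes kept were. One was at least 1.5-fold lower, the T cell and monocyte attractant Ccl5, where 2.89% of all genes kept were. Both were among the least abundant members kept, and all other members, among them every one above 5 FPKM, stayed within 1.5-fold on the scale of FPKM + 1. Ackr1, at 1.29 and 0.553 FPKM, was 0.428-fold by reads and passed 1.5-fold with 0.1 added in place of 1. The log2 ratio was below 0 for 22 of the 31 members kept, or 71.0%, against 53.7% of all genes kept, but 18 of the 31 lay above 0 with the trend of the ratio over the length behind the deposited FPKM removed, and 23 with the trend over the longest annotated transcript removed. The counting interval lay wholly below 1-fold for 15 members, against 31.0% of all genes kept, and wholly above it for 4, against 27.9%. It spanned 1-fold for the other 12.

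**Figure D1:**
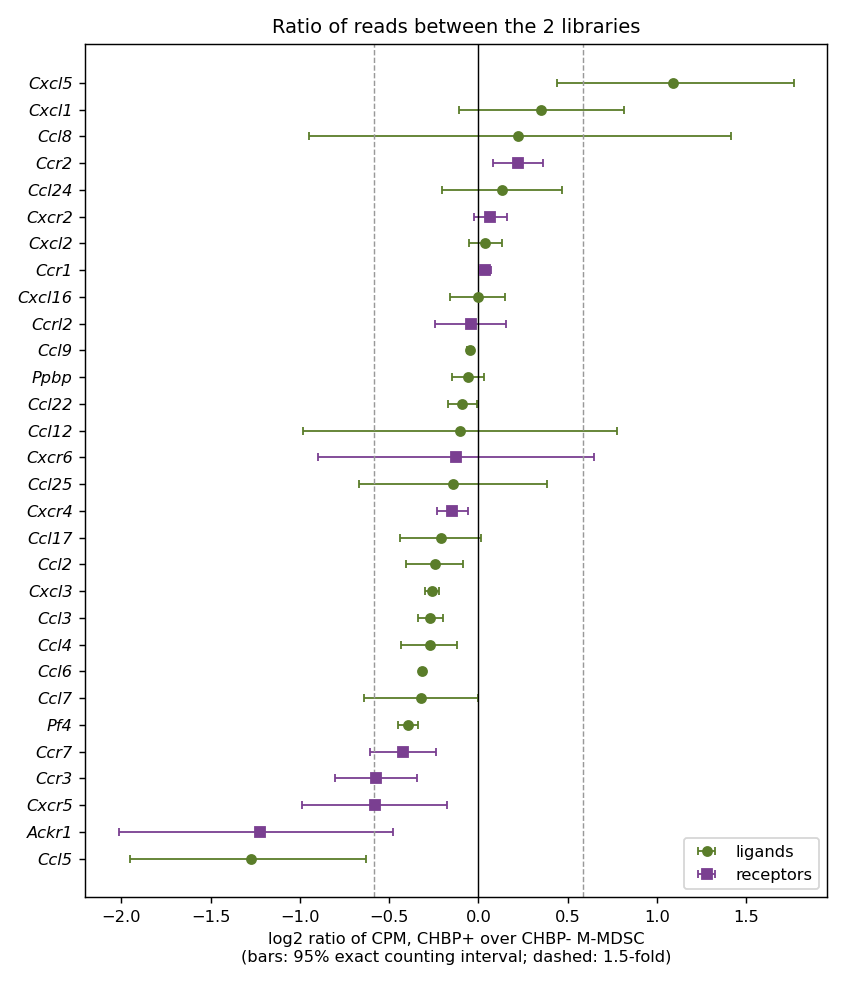
Log2 ratio of CPM (read count scaled to the library total), CHBP+ over CHBP- M-MDSC (x axis), for 30 of the 31 members kept (y axis), with ligands as circles, receptors as squares, bars for the 95% exact counting interval and dashed lines at 1.5-fold. Cxcl5 lies to the right at 1.09, Ccl5 and Ackr1 to the left at -1.27 and -1.22, and most others within the dashed lines.

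The ligands with the most RNA were Ccl6 and Ccl9, CC chemokines that mouse myeloid cells make and that act through CCR1. Ccl6 (ENSMUSG00000018927, chromosome 11, 83587882 to 83593087 on GRCm38) had 125620 reads in CHBP- and 99692 in CHBP+ M-MDSC, and 2993 and 2405 FPKM. It ranked 8th of all genes by FPKM in CHBP- and 9th in CHBP+, and it was lower in CHBP+, 0.803-fold by reads (0.797 to 0.810), with a log2 ratio of -0.32. A gene that overlaps it, E230016K23Rik, had 758 and 832 reads. Ccl9 (ENSMUSG00000019122, chromosome 11, 83572919 to 83578636) had 55166 and 52797 reads and 1038 and 1006 FPKM, 0.969-fold by reads (0.958 to 0.981). The 2 genes together made up most ligand reads. Ccl6 took 59.4% of them in CHBP- (95% interval 59.2% to 59.7%) and 55.9% in CHBP+ (55.7% to 56.1%), and Ccl9 took 26.1% and 29.6%.

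The RefSeq promoters (GRCm38.p6, 250 bases before to 50 after the start site, 5′ to 3′) of these 2 neighbouring genes are printed because the genes carry most of the ligand RNA, beside those of the CXC ligands Cxcl1, Cxcl2 and Cxcl3, which lie in another group on chromosome 5. Capitals mark the letters that match 1 of 5 short motifs on either strand.
Ccl6 (chr11:83593038-83593337, - strand): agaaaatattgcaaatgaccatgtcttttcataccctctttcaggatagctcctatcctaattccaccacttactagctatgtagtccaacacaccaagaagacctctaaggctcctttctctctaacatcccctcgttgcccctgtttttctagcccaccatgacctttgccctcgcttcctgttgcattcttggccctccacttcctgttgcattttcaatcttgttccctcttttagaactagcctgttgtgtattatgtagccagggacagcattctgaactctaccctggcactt
Ccl9 (chr11:83578587-83578886, - strand): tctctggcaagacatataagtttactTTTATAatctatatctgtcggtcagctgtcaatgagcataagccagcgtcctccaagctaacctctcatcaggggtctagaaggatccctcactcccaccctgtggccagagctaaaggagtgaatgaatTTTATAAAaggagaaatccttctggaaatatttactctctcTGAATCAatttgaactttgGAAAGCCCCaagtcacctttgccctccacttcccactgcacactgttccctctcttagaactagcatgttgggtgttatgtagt
Cxcl1 (chr5:90890995-90891294, + strand): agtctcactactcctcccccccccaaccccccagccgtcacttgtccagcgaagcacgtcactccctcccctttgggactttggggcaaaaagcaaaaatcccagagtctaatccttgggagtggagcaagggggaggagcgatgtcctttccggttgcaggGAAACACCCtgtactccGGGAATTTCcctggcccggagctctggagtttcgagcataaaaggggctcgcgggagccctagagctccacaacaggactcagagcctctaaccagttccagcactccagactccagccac
Cxcl2 (chr5:90903649-90903948, + strand): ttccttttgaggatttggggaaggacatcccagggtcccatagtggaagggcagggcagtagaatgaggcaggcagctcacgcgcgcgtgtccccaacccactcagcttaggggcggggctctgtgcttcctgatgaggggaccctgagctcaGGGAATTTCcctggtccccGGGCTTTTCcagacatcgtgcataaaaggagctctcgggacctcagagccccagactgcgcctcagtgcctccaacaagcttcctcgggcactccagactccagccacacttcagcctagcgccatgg
Cxcl3 (chr5:90785851-90786150, + strand): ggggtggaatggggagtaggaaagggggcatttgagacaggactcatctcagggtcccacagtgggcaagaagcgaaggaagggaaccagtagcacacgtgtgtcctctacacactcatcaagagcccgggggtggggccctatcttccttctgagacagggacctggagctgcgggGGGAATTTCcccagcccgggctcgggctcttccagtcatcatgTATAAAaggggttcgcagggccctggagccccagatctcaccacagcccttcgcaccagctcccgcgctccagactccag

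The motifs searched were the core promoter letters TATAAA, and GGGNNTTTC (NF-kappaB), GAGGAAGT (PU.1), TGANTCA (AP-1) and TTGCNNAA (C/EBP), on both strands, and a match is a description of the letters and not a site of binding. The 3 CXC promoters held the same 9 letters, GGGAATTTC, 71 bases before the start of Cxcl1, 97 before that of Cxcl2 and 73 before that of Cxcl3. Cxcl1 and Cxcl2 each held a further match to GGGNNTTTC, and Cxcl3 held TATAAA 30 bases before its start. The Ccl9 promoter held GAAAGCCCC, which matches GGGNNTTTC on the other strand, TGAATCA, and matches to TATAAA in 2 places, of which 1 is a pair that overlap on opposite strands. The Ccl6 window held none of the 5. GGGNNTTTC was present in 4.36% of all 32851 promoters and in 8 of the 24 promoter entries of the 21 members kept that had one, namely in Ccl9, Ccr3, Ccrl2, Cxcl1, Cxcl2, Cxcl3, Cxcr2 and Cxcr4. Their log2 ratios lay on both sides of 0, as the values below show. TATAAA was present in 13.6% of all promoters and in 7 of the 24 entries, TGANTCA in 7.81% and 3, TTGCNNAA in 10.8% and 1, and GAGGAAGT in 3.20% and 1. The single entry was that of Pf4 for both of the last 2 motifs. No promoter sequence was used here for Ccl2, Ccl4, Ccl5, Ccl7, Ccl24, Cxcl5, Cxcl16, Ccr7 or Cxcr5.

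**Figure D2:**
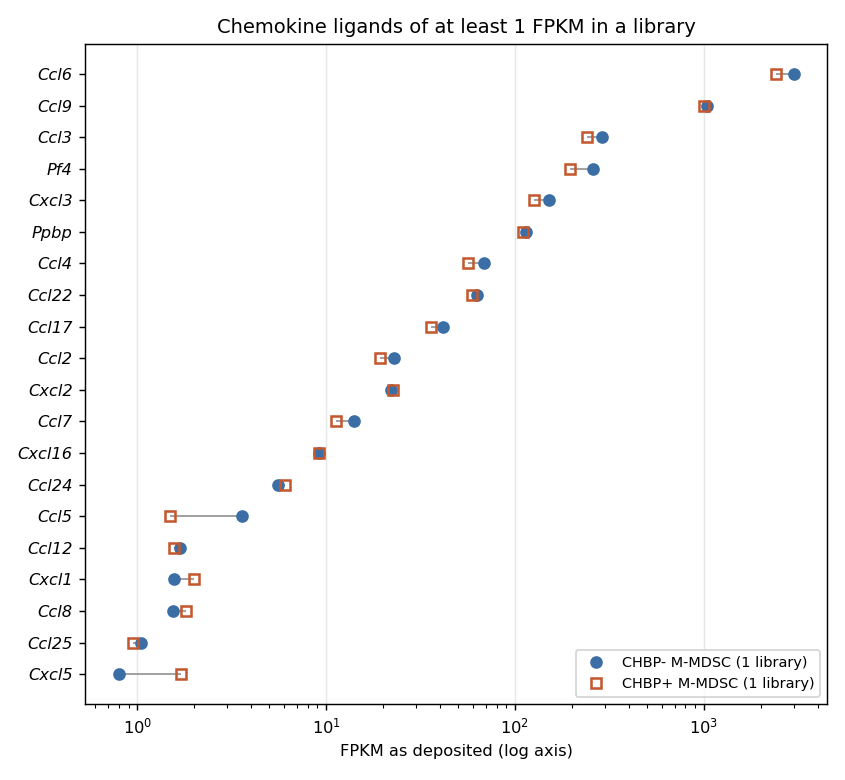
FPKM as deposited (x axis, log scale) of the 20 ligands kept (y axis) in CHBP- M-MDSC (filled circles) and CHBP+ M-MDSC (open squares), 1 library each. Ccl6 and Ccl9 lie near or above 1000 FPKM in both libraries, and the widest gaps are those of Ccl5 and Cxcl5 at the low end.

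The neighbours of Ccl6 and Ccl9 are Ccl3 and Ccl4 (macrophage inflammatory proteins) and Ccl5, which also draws T cells. Ccl3 had 3672 reads in CHBP- and 3007 in CHBP+ M-MDSC, and 290.8 and 241 FPKM, 0.829-fold by reads (0.790 to 0.870). Ccl4 had 742 and 606 reads and 68.2 and 56.4 FPKM, 0.827-fold (0.742 to 0.922). Ccl5 (ENSMUSG00000035042, chromosome 11, 83525778 to 83530518) had 71 and 29 reads and 3.59 and 1.48 FPKM. Its reads were 0.414-fold (0.259 to 0.645) and its log2 ratio -0.89, which stayed past 1.5-fold at -0.60 with the trend over the FPKM length removed and fell short of it at -0.50 with that over the longest transcript removed. All 5 ligands of this stretch were lower in CHBP+, each with an interval wholly below 1-fold, although Ccl3 and Ccl4 turned above 0 with either length trend removed, and summed they took 1.12% and 0.959% of all reads. They lie side by side on chromosome 11 from 83525778 to 83664683.

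The ligands of CCR2, which draw monocytes out of the marrow, lie in a second group on chromosome 11 from 82035571 to 82305690. Ccl2 had 721 and 601 reads and 22.9 and 19.3 FPKM, 0.844-fold (0.756 to 0.942). Ccl7 had 186 and 147 reads and 14.1 and 11.3 FPKM, 0.800-fold (0.640 to 0.999). Ccl12 had 25 and 23 reads and Ccl8 13 and 15, with intervals that spanned 1-fold. Summed, the 4 had 945 and 786 reads, 0.842-fold (0.765 to 0.927), nearly all from Ccl2 and Ccl7, but on the log2 scale all 4 lay above 0 with the longest-transcript trend removed, and 3 of 4, without Ccl2, with the FPKM-length trend removed. Ccl11 and Ccl1 of the same stretch had 0 reads in both libraries.

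Ccl17 and Ccl22, which draw regulatory and type 2 helper T cells through CCR4, lie near each other on chromosome 8 from 94745590 to 94812035. Ccl22 had 2609 reads in CHBP- and 2420 in CHBP+ M-MDSC, and 63.3 and 59.4 FPKM, 0.939-fold (0.888 to 0.993). Ccl17 had 354 and 302 reads and 41.9 and 36.2 FPKM, 0.864-fold, with an interval that spanned 1-fold (0.738 to 1.01), and with either length trend removed both genes lay above 0. Cx3cl1, the membrane-bound ligand of CX3CR1 that lies between them, had 41 and 40 reads.

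Of the other CC ligands, Ccl24, an eosinophil attractant that binds CCR3, had 145 and 157 reads and 5.54 and 6.07 FPKM. Ccl25, a ligand of CCR9, had 67 and 60 reads and 1.05 and 0.949 FPKM. Both intervals spanned 1-fold. The other ligands of CCR3, Ccl11 and Ccl26, had 0 reads in both libraries.

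The CXCR2 ligands, which draw neutrophils, lie with Pf4 on chromosome 5 from 90759360 to 90905938, and unlike the group of Ccl3 to Ccl9 they lay on both sides of 0. Cxcl3 was the most abundant, with 11280 reads in CHBP- and 9312 in CHBP+ M-MDSC and 151.6 and 126.7 FPKM, 0.836-fold by reads (0.813 to 0.859). Cxcl2 had 1882 and 1908 reads and 22.1 and 22.7 FPKM, 1.03-fold (0.963 to 1.09). Cxcl1 had 73 and 92 reads and 1.57 and 2.00 FPKM, 1.28-fold (0.928 to 1.76). As deposited, the ratios of these 3 genes, whose promoters share GGGAATTTC, lay on both sides of 1-fold. Only the interval of Cxcl3 was clear of it, so the direction of Cxcl1 and Cxcl2 is open. With the longest-transcript trend removed all 3 log2 ratios lay above 0, at 0.07 for Cxcl3, 0.22 for Cxcl2 and 0.56 for Cxcl1. With the FPKM-length trend removed Cxcl3 stayed below 0, at -0.22. Whether the shared letters play a part was not tested. Cxcl5 (ENSMUSG00000029371, chromosome 5, 90759360 to 90761624) had 30 and 63 reads and 0.803 and 1.71 FPKM, 2.13-fold by reads (1.36 to 3.40), with a log2 ratio of 0.59. It was the only ligand whose interval lay wholly above 1-fold, and Cxcl15 of the same stretch had 0 reads. Summed, the CXCR2 ligands had 15311 and 13314 reads, mostly from Cxcl3, and were 0.880-fold (0.860 to 0.901), whereas on the log2 scale all 5 kept lay above 0 with the longest-transcript trend removed, and 4 of 5, without Cxcl3, with the FPKM-length trend removed.

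Ppbp and Pf4, the chemokines of platelet granules, stand in the same stretch. Ppbp had 2046 and 1939 reads and 114.6 and 110 FPKM, 0.960-fold (0.901 to 1.02). Pf4 had 5769 and 4335 reads and 257.5 and 195.9 FPKM, 0.761-fold (0.731 to 0.792). Pf4 had the lowest ratio among the ligands above 100 FPKM only as deposited, since with the FPKM-length trend removed Cxcl3 and Ccl6 were lower than Pf4, at -0.22, -0.17 and -0.12, and with the longest-transcript trend removed Ccl6 was lowest, at -0.07. The 8 megakaryocyte and platelet markers, of which 6 were kept, summed to 24.4 and 30.6 FPKM. The higher sum in CHBP+ came from the integrin Itgb3, at 3.67 and 12.9 FPKM, and without it the other 7 summed to 20.7 and 17.7 FPKM. These did not share 1 direction, with Treml1 at 4.67 and 2.41 FPKM, Itga2b at 9.89 and 10.5 and Gp1ba at 1.18 and 1.55. Of the 6 markers kept, 3 lay above and 3 below 0 on the log2 scale. The part of platelets or their precursors in the Pf4 and Ppbp values was not tested.

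Cxcl16, a membrane-bound ligand of CXCR6, had 697 and 687 reads and 9.21 and 9.19 FPKM, 0.998-fold (0.897 to 1.11). The interferon-induced CXCR3 ligands were at or near the limit of detection. Cxcl10 had 32 and 21 reads, Cxcl9 had 6 and 0, and Cxcl11 had 0 reads in both. A count of 0 was read as up to 3 reads, or 0.184 CPM in CHBP+, which is a fixed floor and not a Clopper-Pearson bound. Cxcl12, the stromal ligand of CXCR4, had 10 and 2 reads, and for Cxcl9 and Cxcl12 the counting interval stayed below 1-fold, with upper bounds of 0.860 and 0.950. Cxcl14 had 24 and 23 reads, Ccl28 had 1 and 1, and Ccl27a had 25 and 14, where the overlapping gene Il11ra1 had 625 and 482. The lymphoid tissue chemokines Ccl19, Ccl21a, Ccl21b, Ccl21c and Cxcl13 had 0 reads in both libraries, as did Ccl20, Ccl27b and Cxcl17 and the pseudogenes Ccl19-ps1 and Ccl19-ps3. Several of these rows are near-identical copies, 6 of them on unplaced contigs, so that a count of 0 there is uncertain.

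**Figure D3:**
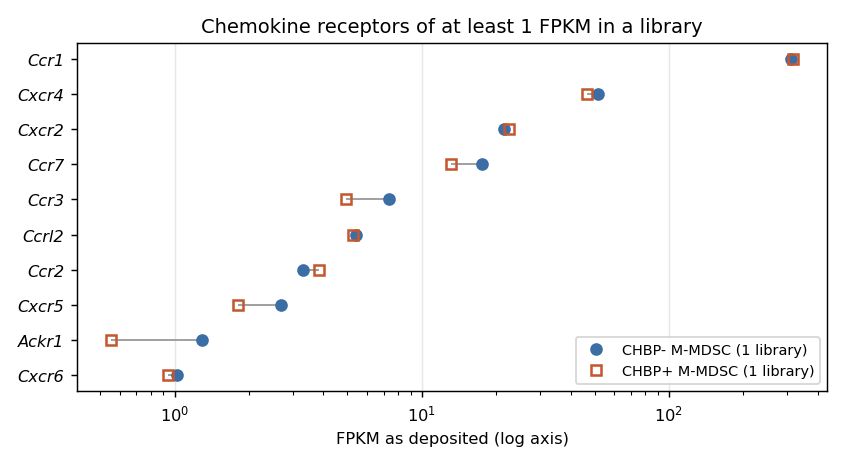
FPKM as deposited (x axis, log scale) of 10 of the 11 receptors kept (y axis) in CHBP- M-MDSC (filled circles) and CHBP+ M-MDSC (open squares), 1 library each. Ccr1 stands highest at 311 and 319 FPKM, and Ccr7, Ccr3, Cxcr5 and Ackr1 are lower in CHBP+.

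Among the receptors, the most RNA came from Ccr1, a receptor of the ligands that led the other list. Ccr1 (ENSMUSG00000025804, chromosome 9, 123962126 to 123968692) had 14508 reads in CHBP- and 14703 in CHBP+ M-MDSC and 310.9 and 319 FPKM, 1.03-fold by reads (1.00 to 1.05). Ccr2 (ENSMUSG00000049103, chromosome 9, 124101950 to 124113557), the receptor that lets monocytes leave the marrow, had 762 and 877 reads and 3.29 and 3.84 FPKM, 1.17-fold (1.06 to 1.29). The intervals of both lay wholly above 1-fold, that of Ccr1 only just.

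Between them on chromosome 9, Ccr3, the receptor of eosinophils, had the opposite direction, with 396 and 263 reads and 7.34 and 4.94 FPKM, 0.672-fold (0.573 to 0.788). All 4 eosinophil markers kept were also below 0 on the log2 scale, against 53.7% of all genes kept and 86.1% of those under 2000 bases. Only 2 of the 4 had an interval wholly below 1-fold. Their median log2 ratio went from -0.30 to -0.08 with the longest-transcript trend removed. The summed level over the 6 listed was 122.8 and 89.8 FPKM, with the granule gene Prg2 at 107 and 77.8 FPKM. The part of eosinophils in the Ccr3 value was not tested. Cxcr6 had 32 and 29 reads, where the overlapping gene Fyco1 had 633 and 1010, so that its count is uncertain. Ccr9 had 43 and 30 reads and Ccr1l1 had 19 and 14, both below 1 FPKM. The count of Ccr9 is uncertain too, since it overlaps Lztfl1, with 322 and 339 reads.

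Cxcr4, which holds cells in the marrow, had 2310 reads in CHBP- and 2061 in CHBP+ M-MDSC and 51.8 and 46.8 FPKM, 0.903-fold (0.851 to 0.959). Cxcr2, the neutrophil receptor, had 1875 and 1938 reads and 21.6 and 22.6 FPKM, 1.05-fold (0.982 to 1.12). Its neighbour Cxcr1 had 14 and 13 reads. Ccr7, which takes mature dendritic cells to lymph nodes, had 574 and 423 reads and 17.6 and 13.1 FPKM, 0.746-fold (0.657 to 0.848). The 8 mature dendritic cell markers, a list that holds Ccr7 and Ccl22 themselves, summed to 320.0 and 320.9 FPKM. Of the 7 kept, 6 were below 0, against 53.7% of all genes kept, and Itgax was above, at 106.8 and 141.9 FPKM. The marker not kept, Zbtb46, had 49 and 93 reads, and its interval lay wholly above 1-fold.

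Cxcr5, the receptor of follicular B cells, had 130 and 86 reads and 2.70 and 1.81 FPKM, 0.670-fold (0.504 to 0.886). All 4 B cell markers were below 0, against 53.7% of all genes kept, and 3 had an interval wholly below 1-fold. Their median log2 ratio went from -0.40 to -0.24 with the longest-transcript trend removed. Their summed level was 39.7 and 26.1 FPKM, with the B cell receptor chain Cd79a at 18.5 and 10.5 FPKM. The part of B cells in the Cxcr5 value was not tested. Ackr1, an atypical receptor found on red cells and their precursors and on small vessels, had 52 and 22 reads and 1.29 and 0.553 FPKM. By reads Ackr1 was 0.428-fold (0.248 to 0.718), but with 1 added to both FPKM values its log2 ratio was -0.56, just short of 1.5-fold, and with 0.1 added, or on CPM, it passed. Of 8 erythroid genes 7 were kept and all 7 were below 0, against 53.7% of all genes kept and 86.1% of those under 2000 bases. For 6 of the 7 the interval lay wholly below 1-fold. Their median log2 ratio went from -0.58 to -0.23 with the longest-transcript trend removed. The globin Hbb-bs stood at 708 and 212 FPKM, and the summed level over the 8 was 1307 and 604.1 FPKM. The study's methods lysed red cells before culture, and the part of erythroid cells in the Ackr1 value was not tested. Ccrl2, which binds chemerin and does not signal, had 428 and 410 reads and 5.44 and 5.27 FPKM, 0.970-fold (0.845 to 1.11).

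The receptors below 1 FPKM were Ccr4 with 24 and 26 reads, Ccr6 with 16 and 15, Ccr8 with 0 and 1, Ccr10 with 2 and 1, Cxcr3 with 6 and 9, and Cx3cr1, a marker of non-classical monocytes, with 50 and 49. Ccr10 overlaps Cntnap1, with 88 and 108 reads, and Cx3cr1 overlaps Wdr48, with 1242 and 1503, so that their counts are uncertain. The scavenging receptors Ackr2 and Ackr3 had 1 and 1, and 4 and 6, and Ackr4 had 0 reads in both. No difference was detectable for any of these at this depth. Ligands and receptors were thus not measured evenly within a pair. The ligands of CCR4 had 2963 and 2722 reads against 24 and 26 for Ccr4, and Cxcr4 had 2310 and 2061 against 10 and 2 for its ligand Cxcl12.

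Levels can be compared between genes only per length, and the length behind the deposited FPKM was in many genes longer than 1 transcript. It was 4514 bases for Cxcl3, whose longest transcript in the mm9 annotation (GENCODE M1) has 1009, and 14043 for Ccr2, whose longest has 5361. The ratio of both lengths had a median of 1.5 in the 31 members and of 1.67 over all genes kept with a transcript there, and was within 0.5% of 1 in 10 members. On the same scale but with the longest transcript as the length, Ccl6 stood at 5292 in CHBP- and 4252 in CHBP+, Ccl9 at 1113 and 1079, Cxcl3 at 678 and 567, and Pf4 at 597 and 454. On this scale Cxcl3 and Pf4 stood above Ccl3 at 290.8 and 241, whereas by deposited FPKM Ccl3 stood above both. Ccr1, Cxcr4, Cxcr2 and Ccr7 stood in this order on both scales, but Ccr2 at 8.62 and 10.05 moved above Ccr3 at 7.34 and 4.94.

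**Figure D4:**
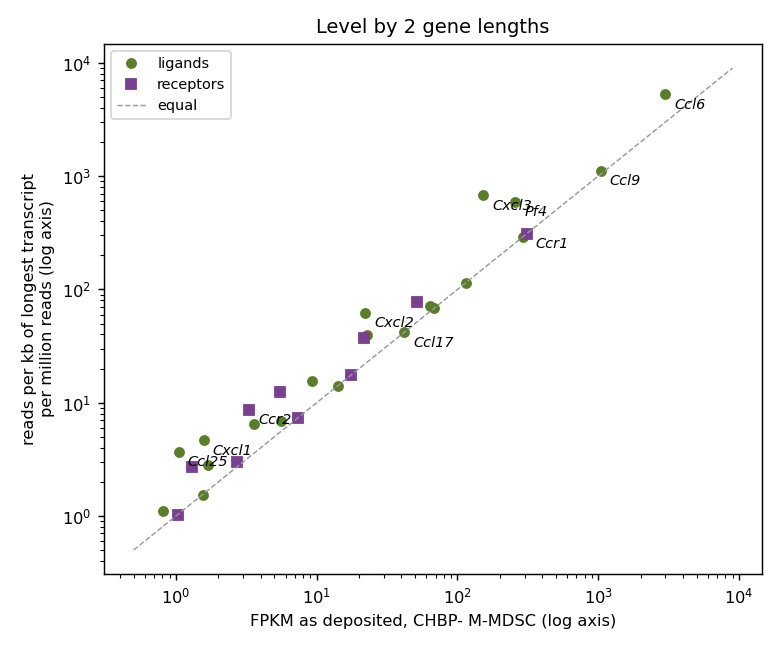
Level of 30 of the 31 members kept in CHBP- M-MDSC by deposited FPKM (x axis, log scale) and by the same value computed with the longest transcript as the length (y axis, log scale), with ligands as circles, receptors as squares and a dashed line where both are equal. Cxcl3, Pf4 and Ccl6 lie well above the line, and Ccl9 and Ccr1 close to it.

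The log2 ratio between these libraries rose with transcript length over all genes, with a Spearman rho of 0.658 across 10508 genes, which share the same 2 libraries and are not independent. Ligand transcripts are short, with a median longest transcript of 1044.5 bases, against 2614 for the receptors and 2969 for all genes kept. Below 2000 bases, 12 of 17 ligands and 4 of 4 receptors had a log2 ratio below 0, against 86.1% of all genes of that length, and the ligands' median was -0.21 against -0.26 for all those genes. From 2000 bases up, 3 of 3 ligands and 3 of 7 receptors were below 0, against 41.3% of all genes. So the share of short ligands below 0 was no higher than that of other short genes.

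With the trend over length removed, the direction of the ligand family turned, from a median log2 ratio of -0.08 with 15 of 20 below 0, to a median of 0.11 with 17 of 20 above 0 for the longest transcript and of 0.045 with 14 of 20 above 0 for the FPKM length. That of the receptors went from -0.06 to 0.04, with 6 of 11 above 0, and to -0.01, with 4 of 11 above 0. With the longest-transcript trend removed, the members that stayed below 0 included Ccl5 at -0.50, Ccl6 at -0.07 and Ccl9 at -0.01 among the ligands, and Ccr3 at -0.48, Cxcr5 at -0.32, Ackr1 at -0.27 and Ccr7 at -0.24 among the receptors. Cxcl5 at 0.79 and Cxcl1 at 0.56 stayed above 0, whereas Ccl3 turned to 0.10, Ccl4 to 0.12, Ccl2 to 0.07, Cxcl3 to 0.07, Pf4 to 0.01 and Cxcr4 to 0.04, and Ccr2 turned to -0.02. In all, 16 of the 31 members changed sign. The direction of Ccl3, Ccl4, Ccl2, Cxcl3, Pf4, Cxcr4 and Ccr2 thus depended on whether the longest transcript was taken into account. That of Ccl5, Ccl6, Ccr3, Ccr7, Cxcr5, Ackr1, Cxcl5 and Cxcl1 did not, although the counting interval of Cxcl1 spanned 1-fold. With the length behind the deposited FPKM in place of the longest transcript, Ccl2 at -0.04, Cxcl3 at -0.22, Pf4 at -0.12 and Cxcr4 at -0.01 stayed below 0. Ccl9 turned to 0.06.

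**Figure D5:**
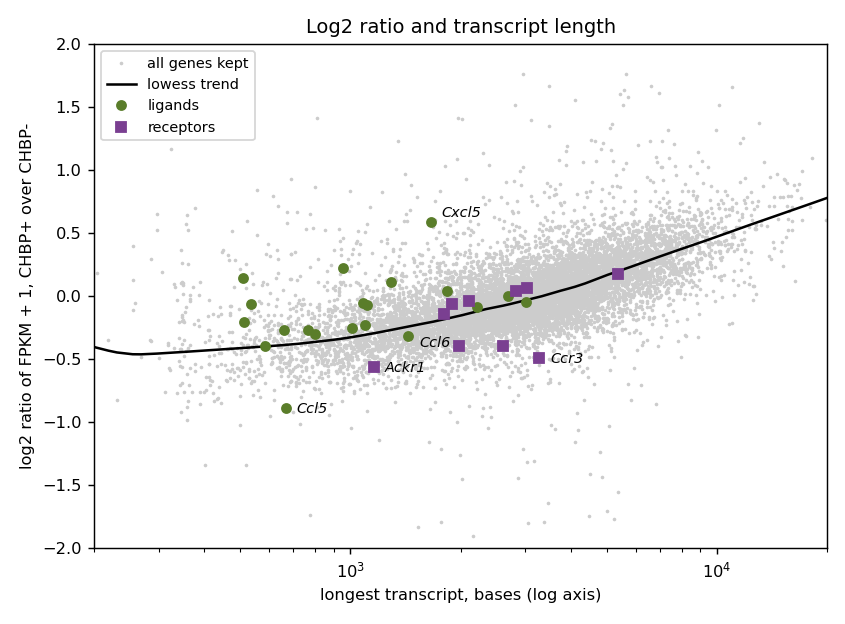
Log2 ratio of FPKM + 1, CHBP+ over CHBP- M-MDSC (y axis), against the longest transcript in bases (x axis, log scale) for the 10508 genes kept with an annotated transcript (grey), with the lowess trend (line), ligands (circles) and receptors (squares, 10 of 11). 33 grey points lie outside the axes, and most ligands sit at the short end mostly on or above the trend line while Ccl5, Ccr3 and Ackr1 lie under it.

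Downstream of the receptors, a list of 30 signalling genes (Gi subunits, phosphoinositide 3-kinase gamma, Rac activators, arrestins, receptor kinases and RGS proteins) was described in the same way, and all 30 were kept. Of these, 2 were at least 1.5-fold higher in CHBP+ and 1 lower, where 3.42% and 2.89% of all genes kept were. On the log2 scale 16 lay above and 14 below 0, where 53.7% of all genes kept were below. The median log2 ratio was 0.04 against -0.03 over all genes kept. Tiam1, a Rac activator, had 1179 and 2791 reads and 4.41 and 10.6 FPKM. Arrb1, an arrestin that ends receptor signalling, had 1213 and 2060 reads and 4.91 and 8.44 FPKM. Rgs19, which speeds the shut-off of Gi, had 1387 and 787 reads and 13.0 and 7.48 FPKM. With the longest-transcript trend removed their log2 ratios went from 1.10 to 0.76, from 0.68 to 0.35 and from -0.73 to -0.50, so only Tiam1 of the 3 stayed past 1.5-fold, whereas with the FPKM-length trend removed Tiam1 at 0.86 and Rgs19 at -0.75 did.

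The Gi subunits themselves differed less. Gnai2 had 118.9 and 105.4 FPKM and Gnai3 106.8 and 121.6 FPKM. Among the 10 related genes 7 were kept and none passed 1.5-fold, while Xcl1, Xcr1 and Rarres2 had 0 reads in both libraries. Cmklr1, the chemerin receptor, stood at 19.5 and 26.1 FPKM, and Mif, a cytokine that binds CXCR2 and CXCR4, at 229 and 174 FPKM. Dpp4, a protease that trims chemokines, stood at 1.13 and 1.56 FPKM. With the longest-transcript trend removed their log2 ratios went from 0.40 to 0.44, from -0.39 to 0.01 and from 0.26 to 0.07.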

How the data were processed

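mRNA of 2 M-MDSC libraries, 1 per condition, was compared, grouped by the labels. The authors filtered the reads and removed ribosomal RNA reads. The study's methods name TopHat2, mm9 and HT-seq, whereas the submitters' processing notes name HISAT2 2.0.4, Cufflinks 2.1.1, Cuffdiff and mm10. The deposited coordinates overlapped RefSeq GRCm38 for 63 of the 64 members with a position there. How multi-mapping reads and strand were handled is not given in the sources used here. The deposited values used were the authors' raw read counts per gene and their FPKM values, in which each count was scaled by gene length and by total reads and by nothing else.

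From these, the log2 ratio with a pseudocount of 1 FPKM, CPM and Clopper-Pearson intervals were computed (Python 3.11.15, scipy 1.17.1). With 1 library per condition no model was fitted and no p-value is given, although the study names DESeq. The length trend was a lowess fit (fraction 0.2, statsmodels 0.14.6) over all genes kept. The GENCODE M1 transcript was found by gene identifier for 96.0% of genes kept. edgeR 4.0.16 (R 4.3.3) gave the trimmed mean of M values as an alternative scaling. The scripts were tested on simulated data. Every member of at least 1 FPKM was named, and the rest by their reads, except 1 receptor, which is in the counts over members but is not reported here. The members, the gene lists, the motifs and the tests were chosen with earlier results of these data known. The removal of the trend with the longest transcript, the sum without Ccl6 and the erythroid list were added after the data were seen. Grk2 and Grk3 are listed in the files as Adrbk1 and Adrbk2.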

Additional observations from a re-analysis of the deposited data

How the results depend on the processing

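With 1 library per condition no replicate could be left out. No paired analysis was possible because each condition had 1 library. The count of members at least 1.5-fold higher was 1 and that at least 1.5-fold lower was 1 with no filter beyond 1 read, median centring, trimmed mean of M values, and a call that also required an interval clear of 1-fold. The lower count was 2, with Ackr1 added, with a pseudocount of 0.1 FPKM and with CPM. With a minimum of 5 FPKM, which leaves Cxcl5 and Ccl5 out, both counts were 0, and with a threshold of 2-fold both were 0. With the trend over the FPKM length removed both counts were still 1, and with that over the longest transcript removed the lower count was 0 and the higher 1.

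The ligands' median log2 ratio of -0.08 changed sign when a length trend was removed, to 0.05 with the length behind the FPKM (0.045) and to 0.11 with the longest transcript, where the receptors' median was -0.01 and 0.04. The sign changed for 11 of 31 members with the first length and for 16 with the second, and for 1, Cxcl16, under median centring or trimmed mean of M values. No sign changed with the other settings. For genes under about 30 reads, such as Ccl8 and Ccl12, depth limited the ratio. What part transcript length, RNA quality or CHBP had in the trend was not tested.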
